A study of Mus musculus with 8 samples.

Results

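Prostaglandin E2 synthesis, breakdown and reception were followed through 10 genes, taken by name from 24421 gene symbols: Pla2g4a (cytosolic phospholipase A2), Ptgs1 and Ptgs2 (cyclooxygenases), Ptges and Ptges2 (prostaglandin E synthases), Hpgd (the dehydrogenase) and Ptger1, Ptger2, Ptger3 and Ptger4 (the EP receptors). All 10 were present in the count table, and 9 passed the filter on low counts. Prostaglandin E2 is made when phospholipase A2 frees arachidonic acid from membranes, a cyclooxygenase turns it into prostaglandin H2, and a terminal synthase turns that into prostaglandin E2. The product acts on a family of G protein-coupled receptors named EP, and 15-hydroxyprostaglandin dehydrogenase breaks it down inside cells. In tumors and inflamed skin the pathway is known for vasodilation, pain and the dampening of cytotoxic lymphocytes. One cyclooxygenase, encoded by Ptgs1, is present in many resting tissues, whereas the other, encoded by Ptgs2, is switched on by cytokines, growth factors and stress.

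The RNA came from whole subcutaneous tumors of the MC38 line, a murine colon carcinoma, grown in 8 female B6 Kaede mice that were 9 weeks old when 250000 cells were injected. Every mouse carried the transgene for Kaede, a protein whose green fluorescence turns red under violet light. In the photoconverted group (n = 4 mice), 10 days after injection, when tumors were about 5 mm across, the tumor received 405-nm light through the skin for 3 min, whereas the control group (n = 4 mice) received no light. Tumors of both groups were taken 5 h after the time of exposure, so the comparison asked whether labeling by light changed transcription in the tumor. Whether control mice were anesthetized and handled in the same way is not given in the sources used here. Host and tumor cells were sequenced together, so for every value below fewer cells of a type and less RNA per cell cannot be told apart.

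Total counts were between 12576615 and 35844417 per tumor, and the share of counts on Rn45s, the ribosomal RNA precursor, was between 2.70% and 35.7%. It was above 10% in photoconverted tumor 4 (21.9%), control tumor 2 (35.7%) and control tumor 4 (23.2%), and under 10% in the other 5. Against the label of a carcinoma, the epithelial markers Epcam, Krt8, Krt18, Krt19, Cdh1 and Cldn7 summed to only 2.13 to 5.37 CPM (read counts divided by library size in megareads, after TMM normalization) in any tumor, with Krt18, Krt19 and Cldn7 at 0 counts in at least 1 tumor, while the leukocyte genes Ptprc, Laptm5 and Coro1a summed to 166 to 398 CPM.

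The promoters of the following 4 members are shown because the values below contrast the inducible Ptgs2 with its relative Ptgs1, the most abundant synthase (Ptges) and the breakdown enzyme (Hpgd). Each sequence is from RefSeq on GRCm38.p6, runs 5′ to 3′ on the strand of the gene, and spans 250 bases before to 50 bases after the annotated start. Ptgs2 lies at chr1:150099781-150100080 (+), Ptgs1 at chr2:36230176-36230475 (+), Ptges at chr2:30903248-30903547 (−) and Hpgd at chr8:56294302-56294601 (+). Capitals mark matches to the motifs named in the next paragraph.
Ptgs2: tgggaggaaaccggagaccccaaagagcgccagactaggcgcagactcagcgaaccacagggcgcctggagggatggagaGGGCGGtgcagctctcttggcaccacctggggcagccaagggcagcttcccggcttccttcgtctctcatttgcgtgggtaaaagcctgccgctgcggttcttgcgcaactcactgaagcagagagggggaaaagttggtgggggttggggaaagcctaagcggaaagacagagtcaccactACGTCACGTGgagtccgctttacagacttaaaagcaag
Ptgs1: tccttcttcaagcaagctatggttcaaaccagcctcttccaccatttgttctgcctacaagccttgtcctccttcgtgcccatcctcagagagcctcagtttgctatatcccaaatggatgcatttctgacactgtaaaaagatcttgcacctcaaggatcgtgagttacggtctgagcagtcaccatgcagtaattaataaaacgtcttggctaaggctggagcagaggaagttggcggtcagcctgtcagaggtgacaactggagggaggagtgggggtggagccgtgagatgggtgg
Ptges: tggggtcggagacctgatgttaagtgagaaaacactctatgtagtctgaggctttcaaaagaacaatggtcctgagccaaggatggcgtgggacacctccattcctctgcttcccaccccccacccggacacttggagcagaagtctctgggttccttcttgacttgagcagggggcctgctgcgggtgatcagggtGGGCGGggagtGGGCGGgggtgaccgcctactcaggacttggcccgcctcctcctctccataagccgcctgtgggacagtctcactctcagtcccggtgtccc
Hpgd: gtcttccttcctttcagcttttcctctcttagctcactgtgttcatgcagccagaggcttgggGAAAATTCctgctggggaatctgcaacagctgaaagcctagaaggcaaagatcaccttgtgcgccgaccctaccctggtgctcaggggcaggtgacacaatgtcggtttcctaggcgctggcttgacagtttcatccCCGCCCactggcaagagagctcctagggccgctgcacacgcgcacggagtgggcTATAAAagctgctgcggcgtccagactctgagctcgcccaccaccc

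Promoter entries existed for 9 of the 10 members, and 8 motifs were searched on both strands of all 32851 entries. The motifs were TATAAA (in 13.6% of entries), the cAMP response element core TGACGT (7.51%), the E-box CACGTG (7.15%), the paired heat shock unit GAANNTTC (7.86%), the Egr1 motif GCGNGGGCG (5.55%), the GC box GGGCGG (35.7%), the AP-1 motif TGANTCA (7.81%) and the NF-kB consensus (4.51%). In Ptgs2 the response element core (reverse strand, from position 13 after the start) and the E-box (from position 17) overlapped, and a GC box began at position -170. The Ptges window held GC boxes at positions -53 and -42, and the Hpgd window held TATAAA from position 5, a GC box at -50 and a paired heat shock unit at -187. The Ptgs1 window held none of the 8, which says only that these letters were not in it. No member window held the Egr1, AP-1 or NF-kB motif. GC content was 59.3% for Ptgs2 and 50.7% for Ptgs1.

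Ptgs2 had the largest difference between the groups among the 9 tested members. Photoconverted tumors 1 to 4 had 112, 47.9, 106 and 40.4 CPM of Ptgs2, whereas control tumors 1 to 4 had 59.7, 21.3, 34.7 and 38.1 CPM. The groups overlapped: photoconverted tumors 1 and 3 lay above every control tumor, photoconverted tumors 2 and 4 lay below control tumor 1, and all 4 photoconverted tumors lay above the other 3 control tumors. The means were 76.6 ± 37.6 CPM with light and 38.5 ± 15.9 CPM without (SD, 4 tumors per group). The log2 fold change was 0.99 (standard error 0.40, 95% interval 0.09 to 1.89), with an unadjusted p of 0.0345 in the quasi-likelihood test of edgeR and a p of 0.999 once adjusted by Benjamini-Hochberg over all 14468 genes tested. The two-sided exact permutation test of the CPM values gave p = 0.143, and the smallest value that groups of this size can reach is 0.0286. Among same-numbered tumors, photoconverted over control was 1.87, 2.25, 3.06 and 1.06, above 1 in 4 of 4 pairs. In a fit with replicate number as a block, the log2 fold change of Ptgs2 was 0.95 (standard error 0.22, unadjusted p = 0.00238, adjusted p = 0.532 in edgeR). In that fit 6.01% of all genes tested had an unadjusted p under 0.05, and the labels state no pairing of tumors. Over 16 alternatives, Ptgs2 kept a log2 fold change between 0.75 and 1.28 and an adjusted p between 0.459 and 1.00.

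**Figure D1:**
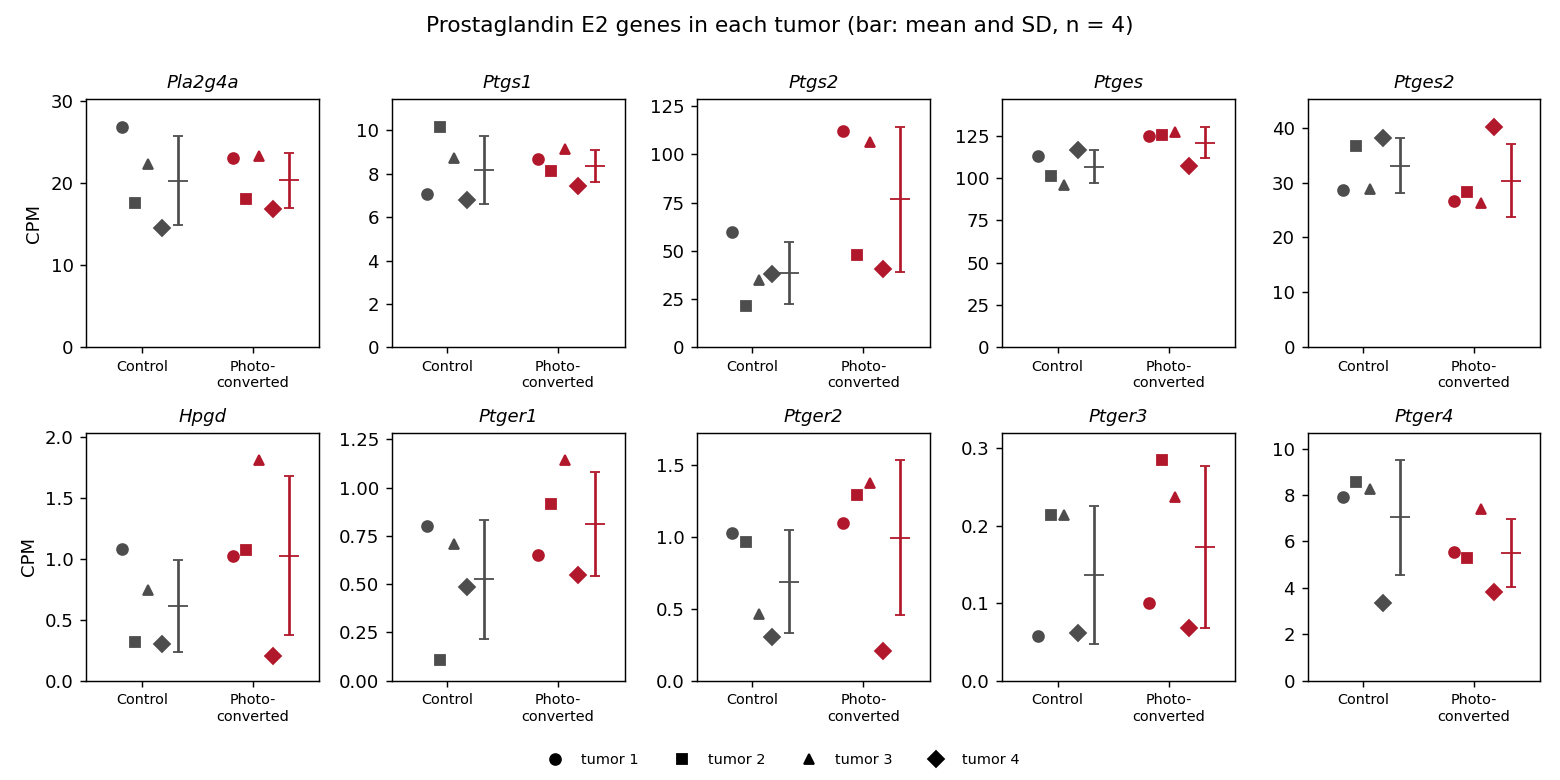
CPM of each of the 10 genes in every tumor (vertical axes in CPM from 0, symbols by replicate number, gray for control and red for photoconverted, bars for the mean and SD, n = 4). Ptgs2 reaches 112 and 106 CPM in photoconverted tumors 1 and 3 against at most 59.7 CPM in controls, and the groups overlap in every panel.

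Of the members tested, 0 were called in edgeR at an adjusted p under 0.05, as were 0% of all genes tested, and 1 (Ptgs2) was under 0.05 before adjustment, as were 2.23% of all genes tested. DESeq2's Wald test and limma gave the same counts of 0 and 1 for the members, where the shares over all genes were 0.117% and 2.77% in DESeq2 and 0% and 2.82% in limma. None of the 10 had groups of tumors without overlap, a pattern that 1.33% of all genes tested had. The log2 fold change was above 0 in 6 and below 0 in 3 of the 9, with a median of 0.18 against -0.01 over all genes tested.

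**Figure D2:**
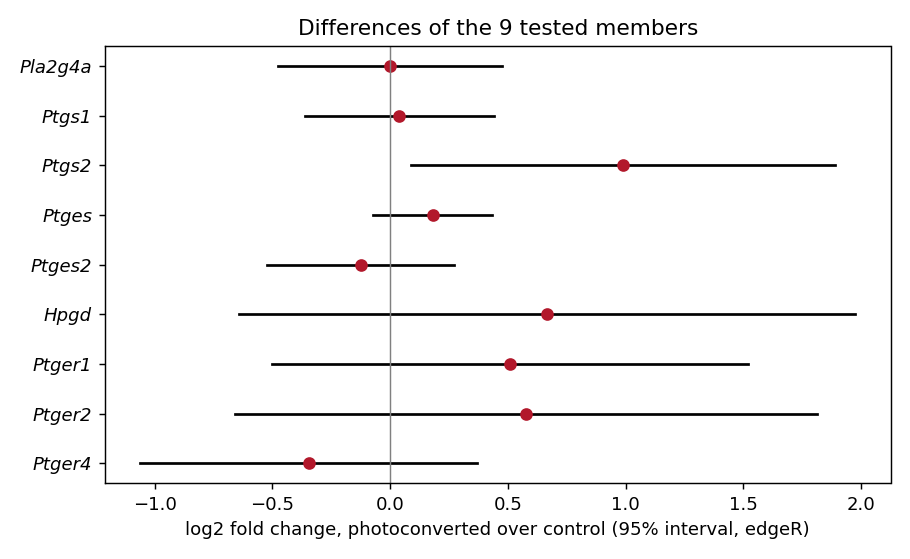
Log2 fold changes of the 9 tested members (points) with 95% intervals from edgeR (lines), photoconverted over control. The interval of Ptgs2 runs from 0.09 to 1.89, and the other 8 intervals include 0.

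Marker sums of some other tissues and cell types lay above every control tumor in photoconverted tumors 1 to 3. For Ptgs2 this held in photoconverted tumors 1 and 3 only. The 10 neutrophil genes summed to 127, 140, 186 and 58.1 CPM in photoconverted tumors 1 to 4, against 79.6, 51.5, 67.7 and 46.4 CPM in control tumors 1 to 4. The groups overlapped through photoconverted tumor 4, and the other photoconverted tumors lay above every control tumor. All 10 neutrophil genes had counts in every tumor and a log2 fold change above 0, and 0 passed the threshold in edgeR. Photoconverted tumors 1 to 3 lay above every control tumor for 3 of the 12 marker lists, the others being mast cell (23.1, 24.3 and 29.9 CPM, against at most 22.6 CPM) and skeletal muscle (340, 561 and 1088 CPM, against at most 335 CPM), and every tested gene had a log2 fold change above 0 in 7 of the 12. The 8 macrophage markers summed to 653 to 1566 CPM in photoconverted tumors and to 527 to 1401 CPM in controls, with 3 log2 fold changes above and 5 below 0. The part of these cells and tissues in the Ptgs2 values was not tested. When only the 5 libraries under 10% Rn45s were fitted, the log2 fold change of Ptgs2 was 0.91 (unadjusted p = 0.0441, adjusted p = 0.459 in edgeR), and among the other 3, photoconverted tumor 4 (40.4 CPM) lay above control tumors 2 (21.3 CPM) and 4 (38.1 CPM), too few to test. Mean Ptgs2 was 72.1 CPM in the 5 tumors with a low Rn45s share and 33.3 CPM in the 3 with a high one. The former were photoconverted tumors 1 to 3 and control tumors 1 and 3, so such contrasts, here and below, also differ in group.

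The long noncoding RNA gene Ptgs2os has its nearest edge 0.157 kb before the annotated start of Ptgs2 and was low but countable. It had 2.48, 1.64, 2.40 and 2.05 CPM in photoconverted tumors 1 to 4, against 1.71, 1.28, 1.63 and 1.16 CPM in control tumors 1 to 4. Only photoconverted tumor 2 fell within the control range, with p = 0.0571 in the two-sided exact permutation test. The photoconverted tumor was higher in 4 of 4 same-numbered pairs, as it was for the members Ptgs2 and Ptger3, the latter with 1 to 9 counts per tumor. The labels state no pairing, and the share of all genes with this pattern is not given here. Its log2 fold change was 0.55 (standard error 0.25, unadjusted p = 0.0548, adjusted p = 0.999 in edgeR). Ptgs2os2, which lies beyond the end of Ptgs2 with its nearest edge 59.0 kb from the annotated start of Ptgs2, had a log2 fold change of 0.14 (standard error 0.21).

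The transcript patterns most like Ptgs2 over the 8 tumors, among the 14467 other tested genes, were those of Gm12603 (Pearson r = 0.985, Spearman rho = 0.929), the chemokine gene Ccl3 (r = 0.984, rho = 0.976) and the extracellular protease gene Adamts1 (r = 0.978, rho = 0.952). These correlations are the highest of many over tumors that also shared differences in depth and Rn45s content, and are given as a description. Ccl3 had 7.38, 3.88, 8.58 and 2.46 CPM in photoconverted tumors 1 to 4, against 4.48, 0.963, 2.17 and 2.32 CPM in control tumors 1 to 4, so that photoconverted tumors 1 and 3 were highest for it too.

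Ptgs1, the other cyclooxygenase gene, was less abundant and spread less widely. It had 8.68, 8.14, 9.13 and 7.44 CPM in photoconverted tumors 1 to 4, against 7.05, 10.2, 8.70 and 6.77 CPM in control tumors 1 to 4, so the photoconverted values lay inside the control range. The log2 fold change was 0.04 (95% interval -0.36 to 0.44, adjusted p = 0.999 in edgeR). The coefficient of variation of Ptgs1 was 8.71% in the photoconverted and 19.3% in the control group, against 49.1% and 41.4% for Ptgs2. The ratio of Ptgs2 to Ptgs1 counts within a library was 12.9, 5.88, 11.6 and 5.43 in photoconverted tumors 1 to 4, against 8.47, 2.09, 3.99 and 5.63 in control tumors 1 to 4, a description that was not tested. Photoconverted tumor 4 thus lay just below control tumor 4 in this ratio.

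Pla2g4a, which supplies the arachidonic acid, was nearly equal in the group means. It had 23.1, 18.0, 23.3 and 16.9 CPM in photoconverted tumors 1 to 4, against 26.9, 17.5, 22.3 and 14.5 CPM in control tumors 1 to 4, with the photoconverted values again inside the control range. Its log2 fold change rounded to 0.00 (95% interval -0.48 to 0.47, adjusted p = 1.00 in edgeR), and its sign changed with small changes in processing. In the 5 tumors with a low Rn45s share Pla2g4a averaged 22.7 CPM, against 16.3 CPM in the 3 with a high share.

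Ptges, which encodes the inducible microsomal synthase, was the most abundant member and varied little. Photoconverted tumors 1 to 4 had 125, 125, 127 and 107 CPM, whereas control tumors 1 to 4 had 113, 102, 96.1 and 116 CPM. Photoconverted tumors 1 to 3 lay above every control tumor, while photoconverted tumor 4 lay below control tumors 1 and 4. Ptges had a log2 fold change of 0.18 (standard error 0.11, 95% interval -0.07 to 0.43, adjusted p = 0.999 in edgeR), and the two-sided exact permutation test gave p = 0.0857. Among the 5 tumors with a low Rn45s share it was 0.26 (unadjusted p = 0.0367, adjusted p = 0.448 in edgeR), where the 3 photoconverted tumors lay above both control tumors. Over all alternatives its adjusted p in these fits was between 0.448 and 1.00. The genes most like Ptges over the 8 tumors were the neutrophil chemokine gene Cxcl2 (r = 0.963, rho = 0.976), the transcription factor gene Nfil3 (r = 0.941, rho = 0.929) and the B cell factor gene Pax5 (r = 0.939, rho = 0.905).

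Ptges2, the gene of a second membrane-associated synthase that is expressed constitutively, ordered the tumors differently. It had 26.6, 28.2, 26.3 and 40.2 CPM in photoconverted tumors 1 to 4, against 28.6, 36.7, 28.9 and 38.1 CPM in control tumors 1 to 4. The 3 libraries with a high Rn45s share held the 3 highest of all 8 values, with a mean of 38.3 CPM against 27.7 CPM in the other 5. Its log2 fold change between the groups was -0.12 (95% interval -0.52 to 0.27, adjusted p = 0.999 in edgeR). The ratio of Ptges to Ptges2 counts was 4.70, 4.43, 4.82 and 2.67 in photoconverted tumors 1 to 4, against 3.96, 2.77, 3.33 and 3.05 in control tumors 1 to 4, so photoconverted tumor 4 was the lowest of all 8 and the other photoconverted tumors were the highest.

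Hpgd, whose product inactivates prostaglandin E2, was scarce and spread widely. Photoconverted tumors 1 to 4 had 41, 34, 46 and 3 counts (1.03, 1.07, 1.81 and 0.205 CPM), whereas control tumors 1 to 4 had 38, 3, 21 and 5 counts (1.08, 0.321, 0.746 and 0.305 CPM). The 3 lowest tumors were the 3 with a high Rn45s share, which averaged 0.277 CPM of Hpgd against 1.15 CPM in the other 5. The log2 fold change between the groups was 0.67 (standard error 0.58, 95% interval -0.64 to 1.97, adjusted p = 0.999 in edgeR), and the coefficient of variation between tumors was 63.8% in the photoconverted and 60.9% in the control group. The ratio of Ptgs2 to Hpgd counts was 109, 44.6, 58.6 and 197 in photoconverted and 55.1, 66.3, 46.5 and 125 in control tumors 1 to 4, highest in photoconverted tumor 4, where Hpgd rested on 3 counts. The genes most like Hpgd over the 8 tumors were Serpinb1a (r = 0.992, rho = 0.952), which encodes a neutrophil protease inhibitor, Jak1 (r = 0.987, rho = 0.905), which encodes a cytokine receptor kinase, and Pkia (r = 0.986, rho = 0.905), which encodes an inhibitor of protein kinase A.

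Among the EP receptors, Ptger4 was the most abundant and had its highest values in control tumors. Ptger4 encodes the receptor EP4, which raises cAMP and is common on macrophages and T cells. It had 5.55, 5.27, 7.40 and 3.82 CPM in photoconverted tumors 1 to 4, against 7.93, 8.56, 8.28 and 3.35 CPM in control tumors 1 to 4. Control tumors 1 to 3 lay above every photoconverted tumor, and control tumor 4 lay below them all. Ptger4 had a log2 fold change of -0.35 (standard error 0.32, 95% interval -1.06 to 0.37, adjusted p = 0.999 in edgeR), and the two-sided exact permutation test gave p = 0.314. Without control tumor 4 the log2 fold change was -0.58 (unadjusted p = 0.0347, adjusted p = 0.9999 in edgeR). With any other single tumor left out, its unadjusted p in edgeR was between 0.164 and 0.525. T cell markers, of which 5 of 6 were in the table, summed to 9.01 to 20.2 CPM in photoconverted and 4.88 to 20.0 CPM in control tumors, with the lowest sum in control tumor 4, and their part in the Ptger4 values was not tested.

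The other EP receptors had few counts. Ptger2, the gene of EP2, which also raises cAMP, had 44, 41, 35 and 3 counts in photoconverted and 36, 9, 13 and 5 counts in control tumors 1 to 4. Photoconverted tumors 1 to 3 (1.10 to 1.38 CPM) lay above every control tumor (0.305 to 1.03 CPM), and photoconverted tumor 4 (0.205 CPM) lay below them all. Ptger1, the gene of the calcium-mobilizing EP1, had 26, 29, 29 and 8 counts in photoconverted and 28, 1, 20 and 8 counts in control tumors 1 to 4. The log2 fold changes were 0.58 for Ptger2 (95% interval -0.66 to 1.81) and 0.51 for Ptger1 (95% interval -0.50 to 1.52), and edgeR gave both an adjusted p of 0.999. Ptger3, the gene of EP3, which lowers cAMP, had between 1 and 9 counts in every tumor, 31 over all 8, too few to pass the filter. The two-sided exact permutation test of its CPM gave p = 0.514.

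Per kilobase of transcript, on which levels of different genes can be compared, Ptges stood above all other members in control tumors. Its median was 29.4 CPM per kb (range 26.3 to 31.9), and the next were Ptgs2 at 8.18 (4.78 to 13.4), Pla2g4a at 6.98 (5.08 to 9.40) and Ptges2 at 6.59 (5.74 to 7.66), whose ranges overlapped one another. Ptgs1 followed at 2.75 (2.36 to 3.54) and Ptger4 at 2.48 (1.03 to 2.62), which overlapped each other but lay below those before them and above the rest. Hpgd at 0.317 (0.181 to 0.644), Ptger2 at 0.193 (0.0828 to 0.279), Ptger1 at 0.128 (0.0228 to 0.170) and Ptger3 at 0.0654 (0.0272 to 0.102) closed the order, each overlapping its neighbor. In photoconverted tumors the median of Ptgs2 was 17.3 CPM per kb (9.08 to 25.1) and that of Ptges 34.3 CPM per kb (29.4 to 34.8). With coding length in place of transcript length, Ptges2 came before both Ptgs2 and Pla2g4a, and Ptger4 came before Ptgs1. The ranges of Ptges2 (24.8 to 33.1 CPM per coding kb) and Pla2g4a (6.47 to 11.97) in control tumors then did not overlap, whereas those of the other 2 reordered pairs overlapped on either length.

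**Figure D3:**
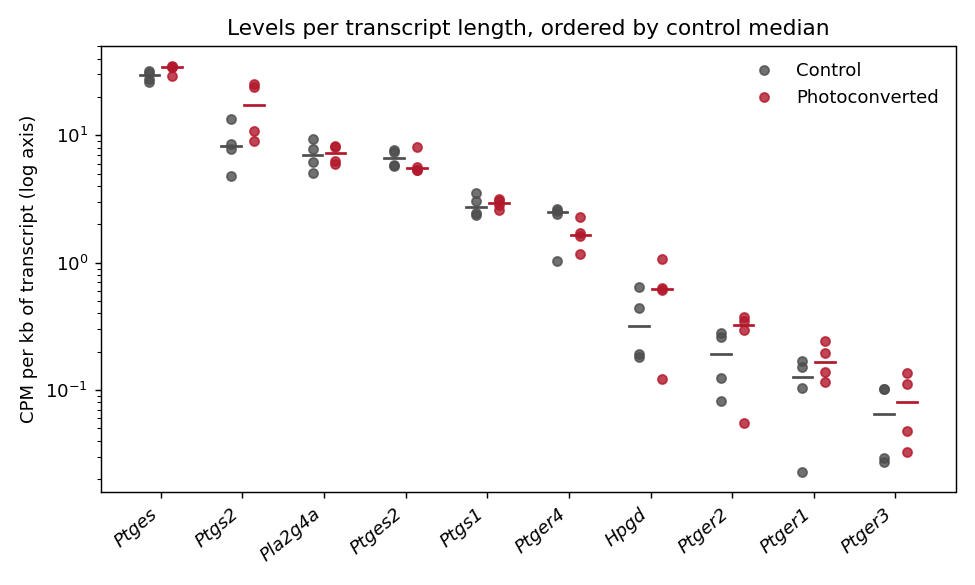
CPM per kilobase of transcript of the 10 genes in each tumor (log axis), ordered by the control median, with short lines for group medians. Ptges is highest in control tumors at a median of 29.4 CPM per kb, and Hpgd and 3 of the receptors lie below 1 in most tumors.

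Across the members, photoconverted tumor 4 was lowest within its group for 9 of 10 genes and highest for 1, Ptges2. Photoconverted tumor 3 had the highest in 7 of the 10. Among control tumors, tumor 4 was lowest for 5 members and tumor 1 was highest for 5. The summed markers were also lowest in tumor 4 of both groups for 9 of the 12 marker lists, platelets and mast cells among them. Mast cell markers summed to 10.7 to 29.9 CPM in photoconverted and 8.91 to 22.6 CPM in control tumors, with Ms4a2 at 0 in at least 1 tumor. Platelet markers summed to 15.5 to 31.8 CPM and 12.7 to 35.8 CPM, with Gp9 and Gp1ba at 0 in at least 1 tumor. The part of these cells in the values was not tested.

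The other genes of the eicosanoid pathway were read from the same fit. Of 61 listed genes, 50 were tested, with 25 log2 fold changes above 0, 25 below 0 and a median that rounded to 0.00. In edgeR 0 were called after adjustment and 2 had an unadjusted p under 0.05, beside 0% and 2.23% of all genes tested, and DESeq2 and limma also gave 0 and 2. With the replicate number as a block, these counts were 0 and 4 in edgeR, beside 0% and 6.01% of all genes tested.

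**Figure D4:**
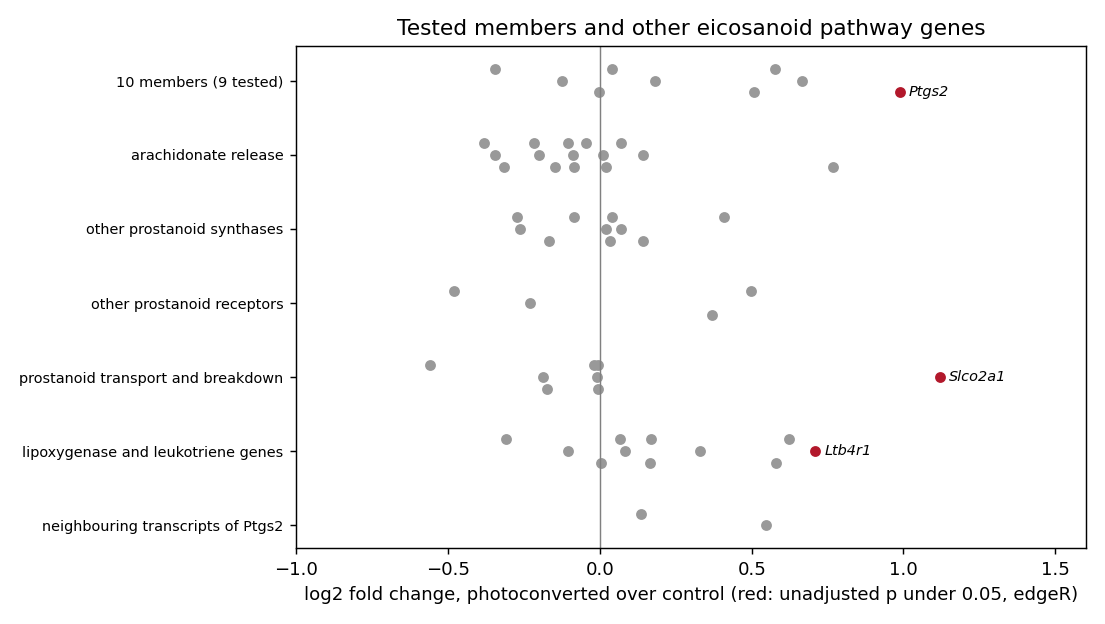
Log2 fold changes, photoconverted over control, of the tested members and of the tested genes of 6 other pathway groups, 1 point per gene and red for an unadjusted p under 0.05 in edgeR. Ptgs2 (0.99), Slco2a1 (1.12) and Ltb4r1 (0.71) are the 3 red points.

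Slco2a1, the transporter that brings prostaglandins into cells for oxidation by the Hpgd product, was 1 of these 2. It had 12.001, 10.5, 21.7 and 2.94 CPM in photoconverted tumors 1 to 4, against 6.76, 6.10, 5.54 and 3.35 CPM in control tumors 1 to 4. As for Ptger2, photoconverted tumors 1 to 3 lay above and photoconverted tumor 4 below every control tumor. Its log2 fold change was 1.12 (standard error 0.49, unadjusted p = 0.0490, adjusted p = 0.999 in edgeR), and the two-sided exact permutation test gave p = 0.143. In the 5 tumors with a low Rn45s share the log2 fold change of Slco2a1 was 1.25 (unadjusted p = 0.00505, adjusted p = 0.250 in edgeR). Of the other 7 genes for transport and breakdown, which had log2 fold changes below 0, those with the smallest p were Akr1c14 at -0.56 (standard error 0.41) and Ptgr2 at -0.17 (standard error 0.19). In the same 5 tumors Akr1c14 was at -0.93 (unadjusted p = 0.0008, adjusted p = 0.113 in edgeR) and Ptgr2 at -0.38 (unadjusted p = 0.0346, adjusted p = 0.447 in edgeR), in a fit where 10.5% of all genes had an unadjusted p under 0.05 and 0.275% an adjusted one.

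Ltb4r1, the gene of the high-affinity receptor for leukotriene B4 on neutrophils and other myeloid cells, was the other. It had 2.60, 4.20, 3.46 and 3.28 CPM in photoconverted tumors 1 to 4, against 2.20, 2.35, 2.20 and 1.52 CPM in control tumors 1 to 4. Every photoconverted tumor lay above every control tumor, which gives the smallest p that the two-sided exact permutation test allows, 0.0286. No other listed pathway gene had groups without overlap, a pattern that 1.33% of all genes tested had. Ltb4r1 had a log2 fold change of 0.71 (standard error 0.24, unadjusted p = 0.0151, adjusted p = 0.999 in edgeR). Of the 11 tested lipoxygenase and leukotriene genes, 9 had a log2 fold change above 0, with a median of 0.17. Next by p were Alox5 at 0.58 (standard error 0.42), the gene of the enzyme that starts leukotriene synthesis, and Alox15 at 0.62 (standard error 0.46). Alox5 was higher in 4 of 4 same-numbered pairs, a pairing that the labels do not state, and its groups overlapped.

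The remaining groups held no gene with an unadjusted p under 0.05 in the main edgeR fit. In the 5 tumors with a low Rn45s share, Ptgis was at 0.61 (unadjusted p = 0.0421, adjusted p = 0.457 in edgeR). With the replicate number as a block, Ptgs2os was at 0.56 (unadjusted p = 0.0487, adjusted p = 0.826 in edgeR). In these 2 fits 10.5% and 6.01% of all genes tested had an unadjusted p under 0.05. Among 15 tested genes for arachidonate release, 5 were above and 10 below 0, and the smallest p-values belonged to Daglb at -0.22 (standard error 0.15), Pla2g2d at 0.77 (standard error 0.56) and Pla2g15 at -0.20 (standard error 0.15). Among the 10 other prostanoid synthases, 6 were above and 4 below 0, led by Cbr1 at -0.27 (standard error 0.18), Ptgis at 0.14 (standard error 0.28) and Fam213b at -0.17 (standard error 0.35). Ptges3, the cytosolic synthase that is also the Hsp90 cochaperone p23, had means of 251 ± 18.3 CPM with light and 244 ± 22.8 CPM without (SD, 4 tumors per group), and was chosen for mention after its values were seen. Of 4 tested genes for other prostanoid receptors, Ptgfrn, which encodes a partner of the prostaglandin F2α receptor, was at -0.23 (standard error 0.13), Ptgfr at 0.50 (standard error 0.40) and Tbxa2r at -0.48 (standard error 0.40).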

How the data were processed

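Bulk RNA-seq of 8 tumors was analysed, 1 library per mouse. The authors deposited a table of raw counts for 24421 gene symbols and a normalized signal table (19823 genes), which equaled the raw counts divided by DESeq2 size factors of 0.416 to 1.77. The submitters' notes name Trim Galore, HISAT2, featureCounts, DESeq2 and mm10, without versions. The annotation and the strand setting are not given in the sources used here. The paper names a TruSeq and the labels a SMARTER stranded kit.

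Counts were tested with edgeR 4.0.16 in R 4.3.3 (filterByExpr with a minimum of 10 counts, TMM, quasi-likelihood test, Benjamini-Hochberg adjustment, threshold 0.05). Alternatives used DESeq2 1.42.0, limma 3.58.1 on log2 of the signal values plus 1, other normalization and filtering, an Rn45s covariate, tumors with an Rn45s share under 10%, the replicate number as a block and each tumor left out. The procedures were tested on simulated counts whose changes were larger than that of any tested member, so the simulation did not cover differences as small as those of the members. CPM used TMM, and log2 CPM a prior count of 2. Exact tests covered all 70 arrangements. Transcript lengths were those of GENCODE M21, for the transcript with the longest coding sequence. Intervals cover the spread between tumors, and total counts of 12576615 to 35844417 limit genes with few counts.

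The main fit and the exact tests did not pair tumors, and replicate numbers were used only for pair comparisons and the block. They were used because deviations of same-numbered tumors from the group means correlated, at 0.597, 0.107, 0.407 and 0.623 for numbers 1 to 4. The 12 differently numbered pairs ranged from -0.600 to 0.482, a range that holds 0.107 and 0.407. The pairing is thus only a hint from the data, and the labels state none. No pair of libraries of 1 group differed by as little as sampling noise. The members, gene lists and tests were chosen with earlier results of these data known. Genes named were the 10 members, up to 3 genes of each pathway group with the smallest p, and the 3 genes most like Ptgs2, Ptges and Hpgd by Pearson r of log2 CPM. Besides the 61 pathway genes, 12 marker lists were summed. Those not given elsewhere had, in photoconverted and control tumors, 1711 to 2254 and 1644 to 7411 CPM (fibroblast), 98.4 to 175 and 87.5 to 150 CPM (endothelial cell), 1.02 to 18.6 and 1.06 to 3.05 CPM (keratinocyte), 129 to 1088 and 133 to 335 CPM (skeletal muscle) and 7.65 to 43.9 and 2.25 to 19.3 CPM (adipocyte).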

Additional observations from a re-analysis of the deposited data

Results flagged for a closer look

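In 3 of the 20 groups of 4 tumors examined for the members, 1 tumor lay far from the other 3 of its group, where chance gives about 1. Photoconverted tumor 4 had 107 CPM of Ptges against 125 CPM in the nearest photoconverted tumor, and 40.2 CPM of Ptges2 against 28.2 CPM in the nearest. Control tumor 4 had 3.35 CPM of Ptger4 against 7.93 CPM in the nearest control tumor. Both libraries had an Rn45s share above 10% (21.9% and 23.2%), and the part of that share in these values was not tested.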

How the results depend on the processing

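No member and no other pathway gene had an adjusted p under 0.05 in any of the 16 alternatives. Over all genes the count was 0, and it was 24 with DESeq2's Wald test, 42 when only the 5 libraries under 10% Rn45s were fitted, and between 0 and 11 with each tumor left out, 11 being reached without photoconverted tumor 4. The cause was not tested. Ptgs2 had an unadjusted p under 0.05 in 11 of 16 alternatives, and not without photoconverted tumor 1 or 3 or control tumor 2, 3 or 4. In edgeR its unadjusted p was 0.0213 without photoconverted tumor 2, 0.0111 without photoconverted tumor 4 and 0.0122 without control tumor 1. In the low-Rn45s libraries 2 members (Ptgs2 and Ptges) and 5 other pathway genes had an unadjusted p under 0.05, as had 10.5% of all genes tested there. Of 144 refitted log2 fold changes of the members, 133 kept their direction and 11 did not, all of the latter for Ptgs1 and Pla2g4a. Ptgs1 ranged from -0.0397 to 0.15 with each tumor left out. Pla2g4a was at 0.00014 with RLE size factors, 9.7e-05 without Rn45s, 0.0203 with the replicate block, 0.0275 in limma, and from -0.13 to 0.16 with each tumor left out. The replicate block changed no call. The 20 exact tests on other scales stayed on their side of 0.05. With coding length the number of separated neighbors in the order of levels was 3 as with transcript length, though between other genes. Genes with under 50 counts in a tumor, such as Hpgd, Ptger1, Ptger2 and Ptger3, have few counts behind each value.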

Other observations

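Of the 61 other pathway genes, 11 were not tested because of low counts. Ptgdr2, the gene of a prostaglandin D2 receptor of type 2 lymphocytes, had 3, 3, 4 and 2 counts in photoconverted and 4, 0, 1 and 0 counts in control tumors 1 to 4. Pla2g2f, the gene of a skin phospholipase, had 1, 13, 24 and 0 counts in photoconverted and 1, 1, 7 and 0 counts in control tumors 1 to 4, and was highest in photoconverted tumors 2 and 3, which also had the highest sums of keratinocyte markers (16.5 and 18.6 CPM). Both genes were chosen after their values were seen.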
